A study of Homo sapiens with 18 samples.

Results

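The genes described here are 232 genes whose RNA was lowered after 12 h of interferon in both wild-type and SP100 knockout keratinocytes and was higher again by 48 h. They were chosen by their measured group means: an untreated mean of at least 2 RPKM in both lines, a ratio of 12 h to 0 h of at most 0.6 in both, and a ratio of 48 h to 12 h of at least 1.25 in both, with 1 added to every mean. RPKM divides a gene's reads by its length and by the size of the library, and is a relative level. The rule took 232 of the 16472 genes in the deposited table, of which 11078 reached the untreated minimum in both lines. Symbols beginning with ZNF were set aside by the rule, and 0 of the 463 such genes would have met its thresholds. A further 33 genes met the level and 12 h thresholds and missed the one for 48 h.

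The cells are NIKS, an established human line of immortalized normal keratinocytes, grown over lethally irradiated J2/3T3 mouse fibroblasts in a medium that contains hydrocortisone, cholera toxin, epidermal growth factor and insulin. Polyadenylated RNA was sequenced from 6 groups of 3 biological replicates. The groups are WT cells (the line with vector, Vec2) and SP100 KO cells (the line KO5), each untreated (0 h) or harvested after 12 or 48 h with interferon alpha 2a, a human type I interferon, at 25 ng/mL. Each genotype is 1 line, so effects of the knockout and of other features of the line cannot be told apart, and since no untreated library of the later times was analysed, interferon exposure and culture time cannot be told apart either. What makes the replicates separate is not stated beyond their labels, so p-values measure the spread between these samples.

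Type I interferon binds a receptor on nearly every nucleated cell and, through JAK kinases and STAT factors, switches on antiviral genes. Interferon also lowers some transcripts, and these are less often described than the induced ones. In epidermal keratinocytes, EGF-family ligands, glucocorticoids, p53-family factors and the barrier programme are among the best known controls of gene expression.

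Relative depth, recovered from low values, ranged 1.49-fold over the 18 libraries, and the total number of reads is unknown. SP100 itself was at 27.9 to 31.9 RPKM in untreated WT and 14.2 to 16.0 RPKM in untreated KO libraries, so the KO line keeps part of the transcript. All 12 keratinocyte markers examined were present, with a summed level of 16811 to 19700 RPKM over the libraries, mostly from KRT5 and KRT14. Single markers moved in both directions. KRT15 had means of 659, 314 and 323 RPKM at 0, 12 and 48 h in WT and 489, 258 and 244 in KO. KRT17 was higher at 12 h, with means of 1363, 2004 and 1532 in WT and 1197, 1923 and 1385 in KO. ITGA6 was also higher at 12 h, with means of 242 and 339 at 0 and 12 h in WT and 246 and 365 in KO. Only 5 of 12 fibroblast markers were in the table, with a summed level of 6.77 to 10.3 RPKM, and COL1A2, COL3A1, DCN, LUM and PDGFRA were not among them. Only 2 of 7 melanocyte markers were in the table, summing to at most 2.34 RPKM. The 3 immune-cell markers examined that were in the table were CD68, CD14 and ITGAM. Their summed level was 24.3 to 25.5 RPKM in untreated WT and 54.1 to 59.2 at 12 h, and 19.7 to 21.2 and 45.2 to 51.8 in KO. CD68 was higher at 12 h, with means of 19.5 and 52.9 RPKM in WT and 15.0 and 47.9 in KO. CD14 was lower at 12 h, with means of 5.09 and 2.40 RPKM in WT and 5.21 and 1.43 in KO. ITGAM had group means of at most 0.653 RPKM. The part of these marker differences in the results was not tested. In bulk RNA, fewer cells of a type and less RNA per cell cannot be told apart.

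Most of the 232 genes lay at modest levels. Their median untreated mean was 8.84 RPKM in WT and 8.92 RPKM in KO, against 16.0 and 16.3 RPKM for all genes at the untreated minimum. The range ran from 2.05 to 662 RPKM in WT, with 53 genes under 5 RPKM in both lines and 14 at 50 RPKM or more in both. At 12 h the median gene stood at 44.6% of its untreated level in WT and 42.5% in KO, where the median over all genes at the minimum was 93.6% and 93.0%. By 48 h the median had come back to 83.6% in WT and 86.6% in KO. The return was mostly partial: the ratio of 48 h to 0 h, with 1 added to each mean, was 1 or above for 37 genes in WT, 43 in KO and 18 in both, between 0.8 and 1 for 123 and 124, and under 0.8 for 72 and 65.

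**Figure D1:**
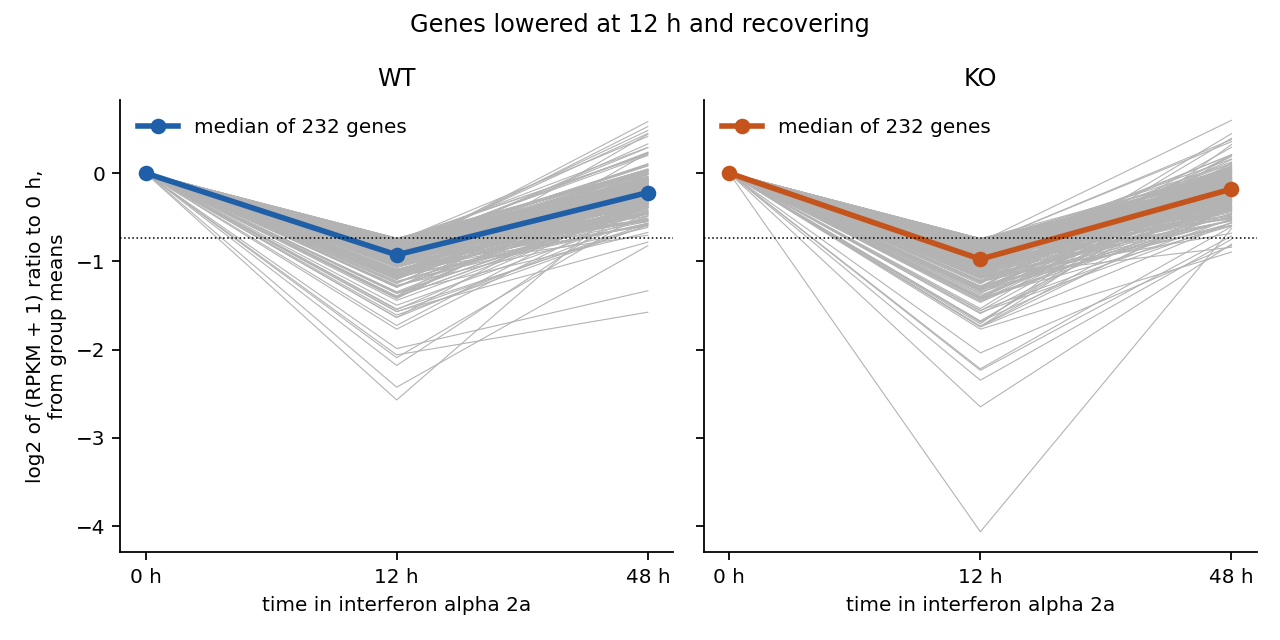
Change of each of the 232 genes from its untreated level (grey lines) and the median (coloured) in WT and KO cells, as the log2 ratio of group means of RPKM with 1 added. The dotted line marks the 12 h threshold of the rule, a ratio of 0.6. Medians return toward 0 at 48 h, and single genes end on both sides of it.

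The changes from 0 to 12 h and from 12 to 48 h were the ones the rule used and are given as a description. All 232 genes passed the filter on low values, at least 3 libraries with 1 RPKM or more, which left 13280 genes for limma on log2(RPKM + 1). At an adjusted p under 0.05, 230 of the 232 were called lower at 12 h in WT, where 29.8% of all genes tested were, and 229 in KO, where 32.8% were. From 12 to 48 h, 222 were called higher in WT (24.6% of all genes) and 221 in KO (27.7%). The median log2 change at 12 h was -0.93 in WT and -0.98 in KO, beside -0.09 and -0.10 over all genes. With median-of-ratios scaling, under which the median of all genes was -0.003 in WT and -0.001 in KO, the same 12 h calls numbered 230 and 229 and the median of the 232 was -0.85 and -0.89. That scaling changes the split of all genes in WT at 12 h from 3959 lower and 2005 higher to 2717 lower and 2892 higher. In KO the split changes from 4362 lower and 2123 higher to 3040 lower and 3153 higher.

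At the 12 h threshold, the nearest genes inside were FOXL1 (0.5996), PNLIPRP3 (0.5995) and C14orf93 (0.5989), by the ratio in the line nearer to it. Among the nearest outside were NTF4 (0.6004) and FABP6 (0.601). At the 48 h threshold, SUN2 (1.2509), LINC03011 (1.2567) and NANOS1 (1.2623) were nearest inside, and ARPIN (1.2487), SLC25A42 (1.2487) and FAH (1.2473) were nearest outside. Membership near these values turns on single libraries, and 134 of the 232 genes met the rule when each of the 18 libraries was left out in turn. Of the 232, 145 met it after median-of-ratios scaling, which brings the 12 h ratios of all genes up toward 1.

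By gene type, 180 of the 232 were protein-coding, 40 were long noncoding RNAs, 2 were pseudogenes, 2 were small RNAs and 8 had an ID outside GENCODE release 29. To 137 protein-coding genes a role was given by hand in 13 classes after the membership was known, so the classes are a description, and 43 protein-coding genes had none. The largest classes were receptors and signalling proteins (23 genes), lipid, acyl-CoA and sterol metabolism (16), secreted ligands, inhibitors and matrix proteins (15), transcription factors and cofactors (14), and cilium, centrosome and cytoskeleton (12).

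**Figure D2:**
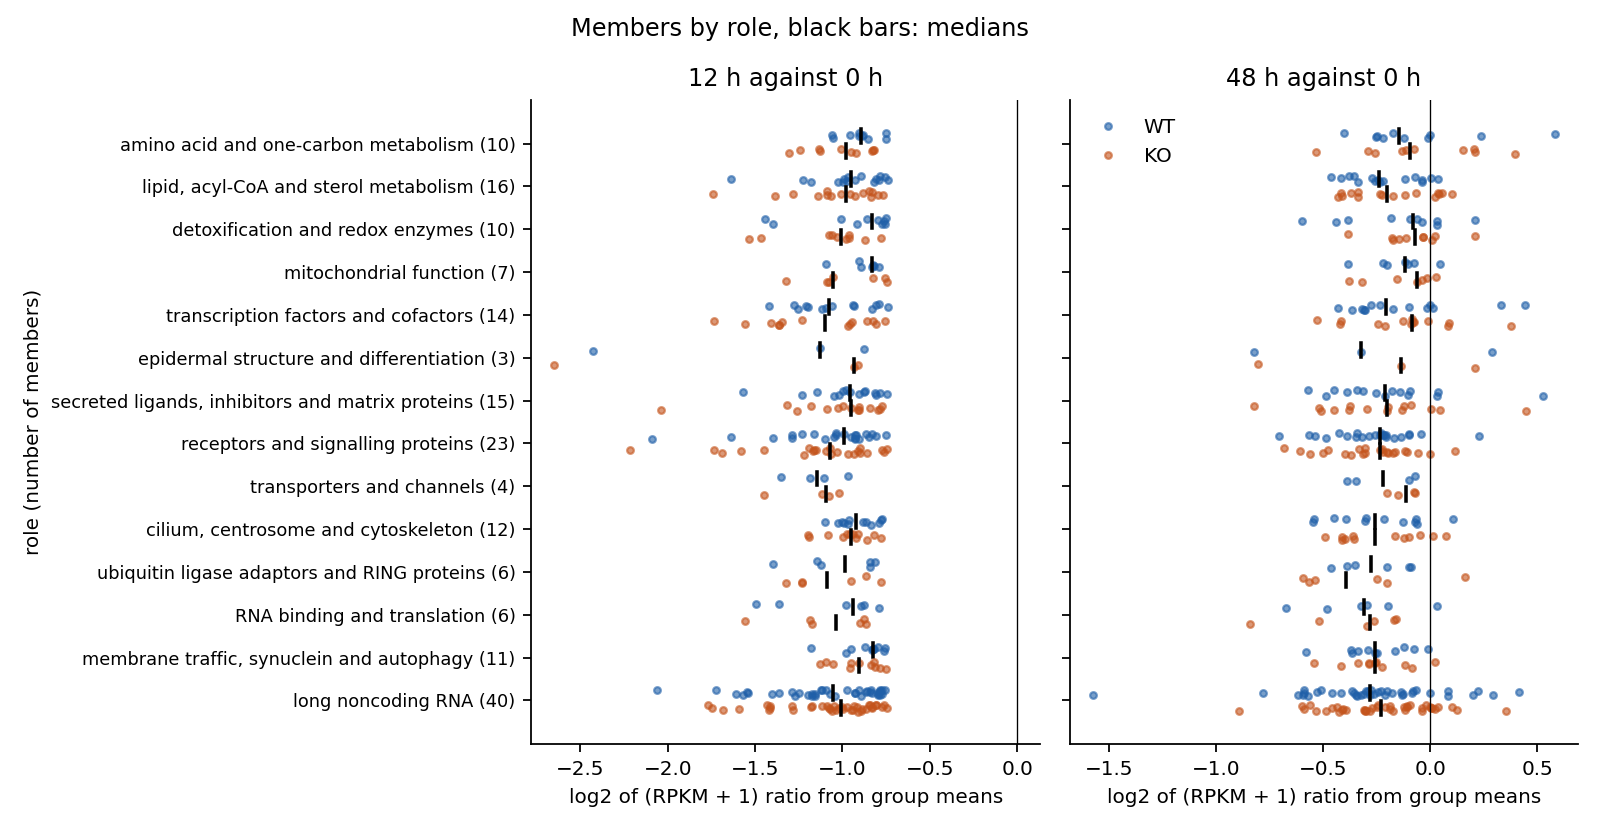
Log2 ratio of group means of RPKM with 1 added, at 12 h against 0 h (left) and 48 h against 0 h (right), for the genes of each hand-assigned role and the 40 long noncoding RNAs. Each point is a gene in WT (blue) or KO (orange) and black bars are medians. At 12 h all points lie left of the threshold of the rule, and at 48 h every class spans a range that overlaps the others.

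The largest falls with measurable levels were in an epidermal enzyme and a neurotrophin receptor. PADI3, a peptidylarginine deiminase that citrullinates structural proteins of hair and epidermis, was at 27.5, 24.0 and 24.6 RPKM in untreated WT, 3.80, 3.94 and 3.99 at 12 h, and 12.9, 14.9 and 13.9 at 48 h. In KO it was at 32.9, 28.2 and 30.7 RPKM, then 3.72, 4.60 and 3.79, then 17.5, 16.2 and 17.5. No library overlapped between the times in either line, and the level at 48 h stayed between those at 0 and 12 h. NGFR, the low-affinity neurotrophin receptor found on basal keratinocytes, went from 7.42 to 9.43 RPKM in untreated WT to 1.11 to 1.31 at 12 h and 4.68 to 6.99 at 48 h. In KO its ranges were 7.59 to 9.65, 1.02 to 1.19 and 4.49 to 5.88 RPKM. CXCL14, a chemokine made constitutively by skin epithelium, had WT means of 24.4 ± 3.04, 7.53 ± 0.795 and 16.1 ± 3.39 RPKM at the 3 times (SD, n = 3). METTL7A, a lipid-droplet and endoplasmic reticulum methyltransferase-like protein, averaged 20.3, 5.26 and 15.9 RPKM in WT at the 3 times, and 22.2, 3.92 and 13.1 in KO. ETNK2, an ethanolamine kinase, fell from a mean of 5.45 to 1.07 RPKM in WT and was at 5.13 at 48 h, with 6.09, 1.12 and 4.61 in KO. PTP4A3, a phosphatase, was lower still in level, at means of 3.53, 0.457 and 2.23 RPKM in WT and 3.49, 0.347 and 2.91 in KO.

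Among the 12 deepest falls, 3 rest on very few reads. ENSG00000264248, which has no symbol, was listed at 0 in 11 of 18 libraries, among them all 6 at 12 h. SNORA3A, a small nucleolar RNA, was above 0 in a single library of each untreated and 48 h group and listed at 0 in all 6 at 12 h. RNVU1-32, a U1-type small nuclear RNA, was at 5.12 to 10.8 RPKM in untreated WT and listed at 0 in 5 of the 6 libraries at 12 h. Short RNAs take a large RPKM from 1 read, so these 3 show little beyond their meeting the rule.

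The secreted proteins held the most abundant of the 232 genes. AREG, amphiregulin, an EGF-family ligand that keratinocytes use as their own growth factor, was at 655, 682 and 649 RPKM in untreated WT, 388, 415 and 381 at 12 h, and 641, 687 and 702 at 48 h. In KO it was at 619, 599 and 640, then 349, 309 and 331, then 613, 609 and 639 RPKM. Levels at 0 and 48 h overlapped in both lines, and every 12 h library lay below them. CCN1, a matricellular protein and common target of YAP, had means of 103, 50.2 and 88.3 RPKM in WT and 85.3, 49.1 and 74.2 in KO. HTRA1, a secreted serine protease, had means of 87.9, 44.9 and 64.1 RPKM in WT and 76.8, 37.2 and 56.0 in KO. GDF15, a stress-induced cytokine of the TGF-beta family, went from 9.66 to 4.70 RPKM in WT and stood at 14.4 at 48 h, above its untreated mean, with 7.65, 2.62 and 10.8 in KO. Its WT libraries at 48 h were 10.5, 15.6 and 17.0 RPKM, of which the lowest overlapped the untreated range of 8.32 to 11.0. The AREG promoter is shown because this is the most abundant gene of the set and 1 of 7 whose promoter holds a full cAMP response element. It is the RefSeq sequence of GRCh38.p14 at chr4:74444886-74445185, plus strand, from 250 bases before the start site to 50 after it, with TGACGTCA in capitals, beginning at -65.
AREG: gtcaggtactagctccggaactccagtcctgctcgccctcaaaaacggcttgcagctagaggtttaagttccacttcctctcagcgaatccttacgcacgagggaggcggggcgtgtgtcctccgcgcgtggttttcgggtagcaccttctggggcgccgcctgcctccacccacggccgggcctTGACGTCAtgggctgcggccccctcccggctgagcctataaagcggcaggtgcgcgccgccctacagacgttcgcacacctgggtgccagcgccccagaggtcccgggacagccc

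Transcription factors and cofactors formed a class of 14 genes, with a median ratio of 12 h to 0 h of 0.474 in WT and 0.469 in KO. TSC22D3 (GILZ), KLF9 and ZBTB16 are classic glucocorticoid-induced genes, and the medium is described as containing hydrocortisone. No list of glucocorticoid targets was examined, and a part of the hormone in these changes was not tested. TSC22D3 was at 42.4, 31.4 and 40.4 RPKM in untreated WT, 15.4, 12.4 and 18.5 at 12 h, and 29.6, 39.5 and 44.7 at 48 h. Its KO means were 43.1, 14.0 and 42.8 RPKM, and its ratio of 48 h to 0 h, with 1 added, was 0.997 in WT and 0.994 in KO. KLF9 had means of 9.66, 5.09 and 9.55 RPKM in WT and 10.0, 4.72 and 9.44 in KO. ZBTB16 had means of 5.67, 1.50 and 5.73 RPKM in WT and 4.31, 1.06 and 4.64 in KO. With 1 added, the ratios of 48 h to 0 h were 0.99 and 0.949 for KLF9 and 1.01 and 1.06 for ZBTB16, in WT and KO. The 3 genes were singled out together after their values were seen, not from a fixed list.

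DBP and TEF, PAR bZIP factors driven by the circadian clock, were both in the set. TEF was at 3.87 to 4.19 RPKM in untreated WT, 1.51 to 1.75 at 12 h and 4.73 to 6.11 at 48 h, with KO means of 3.85, 1.77 and 5.30. DBP had means of 3.57, 1.11 and 2.67 RPKM in WT and 4.04, 0.960 and 3.75 in KO. Of 13 clock genes tested, 6 were called lower at 12 h in WT (46.2%, beside 29.8% of all genes) and 4 in KO (30.8%, beside 32.8%), and 2 were called higher in each line. With median-of-ratios scaling the counts were 4 lower and 2 higher in WT and 4 and 3 in KO. EGR1, an immediate-early factor of growth-factor signalling, went from 146, 148 and 161 RPKM to 77.9, 63.5 and 75.6 in WT and came back to 110, 122 and 122. Of 28 early-response factors tested, 9 were called lower in WT at 12 h (32.1%, beside 29.8% of all genes) and 6 in KO (21.4%, beside 32.8%), and 3 and 4 higher. With median-of-ratios scaling the counts were 6 lower and 4 higher in WT and turned to 5 lower and 9 higher in KO.

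TP73, the p63-related p53-family factor of epithelium, had means of 5.60, 1.72 and 3.90 RPKM in WT and 5.66, 1.62 and 3.62 in KO, and was singled out after its values were seen. ZMAT3, an RNA-binding p53 target, was at 13.8, 13.1 and 14.1 RPKM in untreated WT, 4.25, 4.03 and 4.31 at 12 h, and 8.48, 9.72 and 10.4 at 48 h. ZMAT3 showed no overlap between times in WT, and its KO means were 13.1, 3.80 and 8.86 RPKM. ZMAT3 and GDF15 belong to a list of 25 p53 targets, all of which were tested. Of these, 15 were called lower at 12 h in WT (60%, beside 29.8% of all genes) and 16 in KO (64%, beside 32.8%), and 2 and 1 higher (8% and 4%, beside 15.1% and 16%), with a median log2 change of -0.30 and -0.28 beside -0.09 and -0.10 over all genes. From 12 to 48 h, 16 of the 25 were called higher in WT (64%, beside 24.6% of all genes) and 15 in KO (60%, beside 27.7%), and 0 lower in both. With median-of-ratios scaling the 12 h counts were 11 lower and 3 higher in WT and 12 and 3 in KO.

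Amino acid and one-carbon enzymes made up 10 of the 232 genes, with a median ratio of 48 h to 0 h of 0.902 in WT and 0.936 in KO. ASNS, asparagine synthetase, a standard target of the amino acid response factor ATF4, was at 31.8, 27.3 and 28.6 RPKM in untreated WT, 14.8, 14.7 and 16.0 at 12 h, and 40.8, 48.0 and 44.2 at 48 h. In KO it was at 49.7, 48.6 and 49.0, then 18.9, 19.4 and 19.5, then 64.7, 64.9 and 65.0 RPKM. No library of one time overlapped another, and 48 h was the highest time in both lines. PHGDH, which opens serine synthesis, had means of 51.2, 27.9 and 60.5 RPKM in WT and 68.2, 34.8 and 79.0 in KO. CBS, of transsulfuration, had means of 13.7, 6.86 and 13.7 RPKM in WT and 16.3, 6.33 and 19.0 in KO. NUPR1, a small stress-induced nuclear protein, is outside this class and was placed with the transcription factors and cofactors. NUPR1 had means of 13.4, 5.21 and 18.5 RPKM in WT and 17.8, 4.65 and 18.9 in KO. ALDH7A1, a lysine-degradation dehydrogenase, was the second most abundant of the set, with means of 206, 122 and 189 RPKM in WT and 203, 115 and 188 in KO. Its membership was lost in 2 of the 18 single-library omissions. GLDC, GLS2, BCAT2, KYAT1, PCCA and ALDH6A1, which degrade or transaminate amino acids, complete the class. PHGDH and CBS were singled out after their values were seen.

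**Figure D3:**
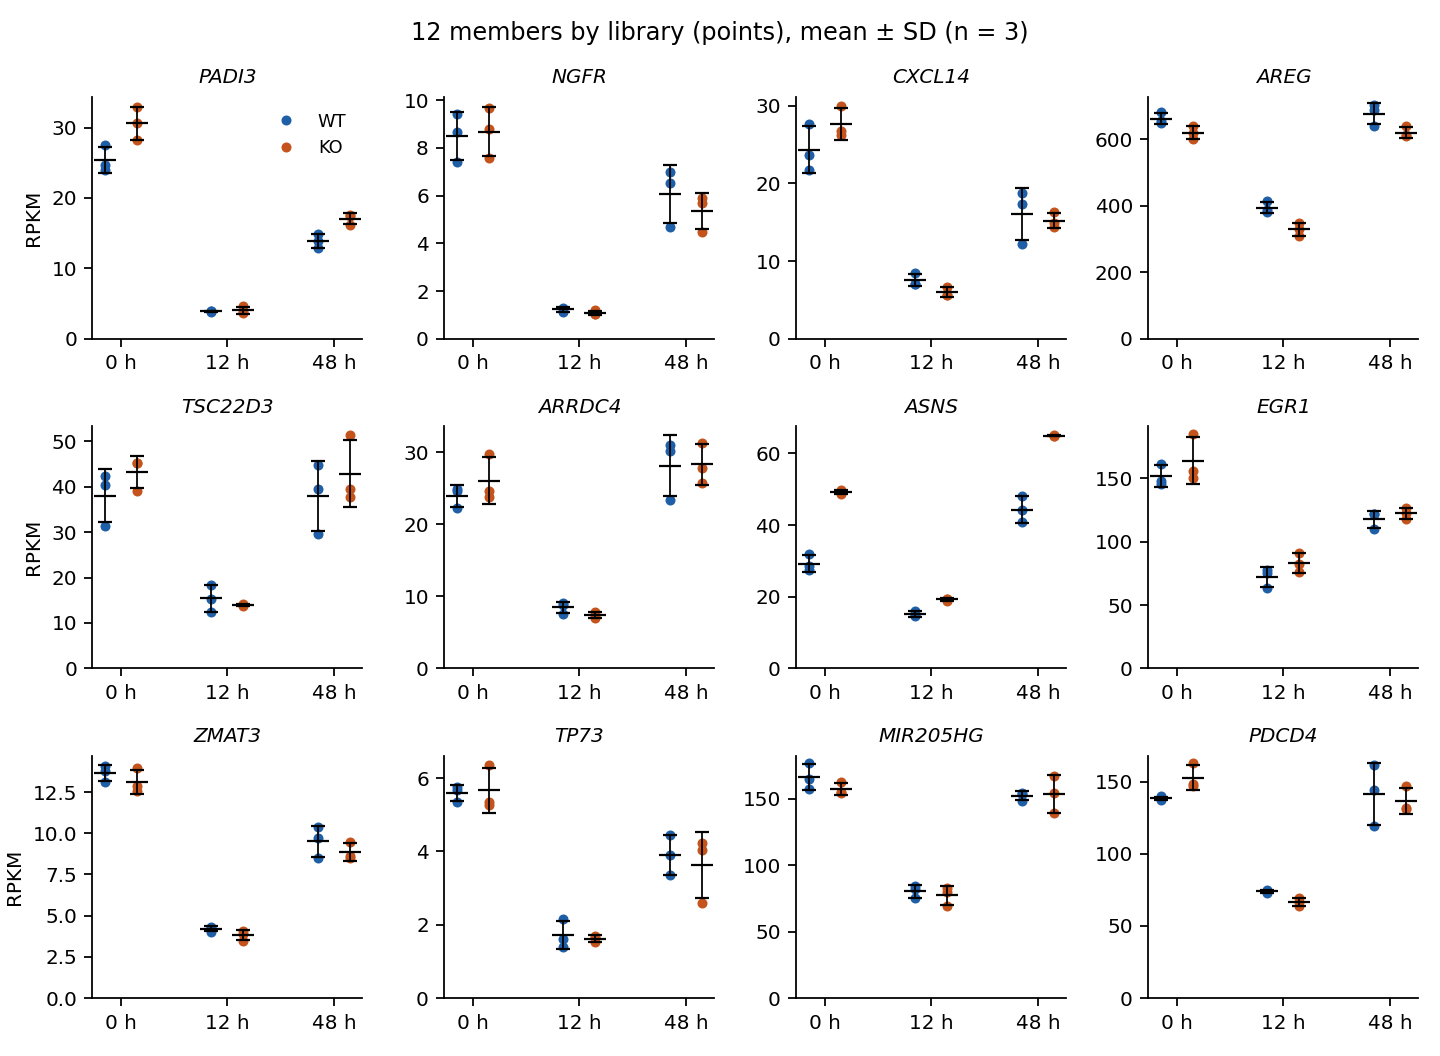
RPKM of 12 genes in each of the 18 libraries (points, WT blue, KO orange) at 0, 12 and 48 h in interferon, with group means and SD (n = 3). In all 12 genes the 12 h points lie below the untreated points, and ASNS ends above its untreated level in both lines.

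ARRDC4, an arrestin-domain protein induced by glucose through MondoA, was at 24.9, 22.2 and 24.6 RPKM in untreated WT, 8.75, 7.62 and 9.04 at 12 h, and 23.3, 30.2 and 31.0 at 48 h. Its KO means were 26.1, 7.39 and 28.3 RPKM. The 12 h libraries stood apart in both lines and the 0 and 48 h ranges overlapped. The ARRDC4 promoter is shown because carbohydrate-response factors bind E boxes and this is 1 of 12 members whose promoter holds CACGTG. It is chr15:97960453-97960752, plus strand, GRCh38.p14, with the E box in capitals, beginning at -210.
ARRDC4: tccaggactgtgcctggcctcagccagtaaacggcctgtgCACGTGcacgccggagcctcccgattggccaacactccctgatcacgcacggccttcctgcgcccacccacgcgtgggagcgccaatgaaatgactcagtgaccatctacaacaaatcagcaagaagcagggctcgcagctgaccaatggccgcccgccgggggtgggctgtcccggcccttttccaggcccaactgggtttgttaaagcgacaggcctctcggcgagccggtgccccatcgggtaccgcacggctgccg

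Translation, protein turnover, transport and lipid metabolism were represented too. PDCD4, which binds translation initiation factors, was at 138, 140 and 138 RPKM in untreated WT, 73.1, 75.0 and 74.2 at 12 h, and 119, 161 and 144 at 48 h. FBXO32 (atrogin-1), KLHL24, KLHL36 and KBTBD3, adaptors of cullin ubiquitin ligases, had untreated WT means of 5.49, 2.78, 12.2 and 3.23 RPKM and 12 h means of 1.93, 1.11, 6.49 and 0.943. SLC7A8, a neutral amino acid transporter, had means of 28.4, 11.9 and 22.1 RPKM in WT and 25.6, 11.3 and 22.1 in KO. The lipid class included ACSS2, ACSF2, CRAT, LPIN1, CERS4 and SPTLC3. PPL (periplakin), of the cornified layer, and SERPINB7, a protease inhibitor of the serpin family, joined PADI3 as epidermal genes.

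Centrosome and cilium genes were a further class. IFT27, a subunit of intraflagellar transport, had means of 9.36, 4.30 and 7.92 RPKM in WT and 9.95, 4.64 and 10.0 in KO. CEP70, a centrosomal protein, had means of 7.39, 3.22 and 5.39 RPKM in WT and 8.98, 3.71 and 6.51 in KO. CCDC113 and TTC32 went from 5.12 to 2.58 and from 7.27 to 3.18 RPKM in WT. TTC32 is named here by its symbol and had no role assigned. Of 157 tested genes with CEP, IFT, BBS, CCDC or TTC symbols, 59 were called lower at 12 h in WT (37.6%, beside 29.8% of all genes) and 69 in KO (43.9%, beside 32.8%). In the other direction 9 were called higher in WT and 11 in KO (5.73% and 7.01%, beside 15.1% and 16% of all genes). Their median log2 change was -0.20 and -0.23, beside -0.09 and -0.10 over all genes. The 157 were taken by symbol alone, so not all need act at the centrosome or cilium, and 5 are members of the set. Of 25 Hedgehog and primary cilium genes tested, none of them a member, 12 were called lower in WT (48%) and 11 in KO (44%), and 0 higher in both, with a median of -0.32 and -0.23. With median-of-ratios scaling the first list gave 44 lower and 15 higher in WT and 55 and 19 in KO, and the second 9 and 0 in WT and 9 and 1 in KO. Of 23 Hippo and YAP targets tested, which include CCN1 and ARHGEF17, 12 were called lower in WT (52.2%) and 8 in KO (34.8%, beside 32.8% of all genes), and 1 higher in each. With that scaling the Hippo and YAP counts were 7 lower and 2 higher in WT and 6 and 3 in KO, and their KO median turned from -0.10 to 0.01.

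Long noncoding RNAs made up 17.2% of the set, against 3.35% of the genes at the untreated minimum and 6.12% of the genes tested. Put the other way, 40 of 371 long noncoding RNAs at the minimum were members (10.8%), and 180 of 10167 protein-coding genes (1.77%). Over all 813 long noncoding RNAs tested, 29.5% were called lower at 12 h in WT and 31.7% in KO, beside 29.8% and 32.8% of all genes. Higher calls were 4.67% in WT and 6.27% in KO, beside 15.1% and 16% of all genes. Their median log2 change was -0.22 and -0.21, beside -0.09 and -0.10 for all genes. With median-of-ratios scaling 198 were called lower and 48 higher in WT, where all genes gave 2717 and 2892. In KO 211 were called lower and 66 higher, where all genes gave 3040 and 3153. The median level of the 40 before treatment was 6.78 RPKM in WT and 6.38 in KO, lower than the 9.66 and 10.3 of the protein-coding members. The part of these levels in the share was not tested.

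The most abundant was MIR205HG, host of the epithelial microRNA miR-205, at 177, 157 and 165 RPKM in untreated WT, 81.8, 75.1 and 84.3 at 12 h, and 154, 148 and 155 at 48 h. MIR200CHG, host of the epithelial miR-200c cluster, was also a member. LINC01503, a squamous-cell long noncoding RNA, had means of 75.8, 43.3 and 63.7 RPKM in WT and 73.6, 38.1 and 59.4 in KO. H19, an imprinted transcript, was at 44.4, 37.9 and 45.0 RPKM in untreated WT, 17.3, 21.8 and 19.9 at 12 h, and 34.7, 34.4 and 32.1 at 48 h. DLGAP1-AS1 returned least in WT, with means of 7.55, 1.05 and 1.87 RPKM, and 5.29, 1.57 and 3.18 in KO.

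The set held 17 RNAs named as antisense to, or divergent from, a neighbouring gene, and 14 of the genes they are named for could be tested. Those 14 partner genes were not used by the rule, and 0 of them were members. In WT 5 of the 14 were called higher at 12 h and 3 lower, and KO cells gave 5 higher and 4 lower, where 15.1% and 16% of all genes were called higher and 29.8% and 32.8% lower. Their median log2 change was 0.03 in WT and 0.05 in KO. ZMPSTE24, the prelamin A protease, rose by a log2 change of 0.47 in WT (limma adjusted p = 2e-07) and 0.52 in KO (4.99e-08), while ZMPSTE24-DT went from 2.31 to 0.920 RPKM in WT and from 2.61 to 1.11 in KO. DNAJC9, a histone co-chaperone, rose by 0.47 (adjusted p = 1.03e-06) and 0.53 (2.25e-07), while DNAJC9-AS1 went from 3.14 to 1.43 RPKM in WT and 3.98 to 1.65 in KO. ELOA, an elongation factor subunit, rose by 0.38 and 0.44, CDC20, the anaphase activator, by 0.17 and 0.27, and EIF3J, a translation factor subunit, by 0.21 and 0.23. IRX2 and NNT fell with their antisense or divergent RNA in both lines, with WT log2 changes of -0.65 and -0.45. PITPNA was called lower in KO only, with a log2 change of -0.15 beside -0.03 in WT, and the interaction had an adjusted p of 0.937. With median-of-ratios scaling 7 partners were called higher and 3 lower in each line. The libraries were stranded by their kit, but the strand setting of the counting is not given in the sources used here, so reads of overlapping partners could be shared.

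**Figure D4:**
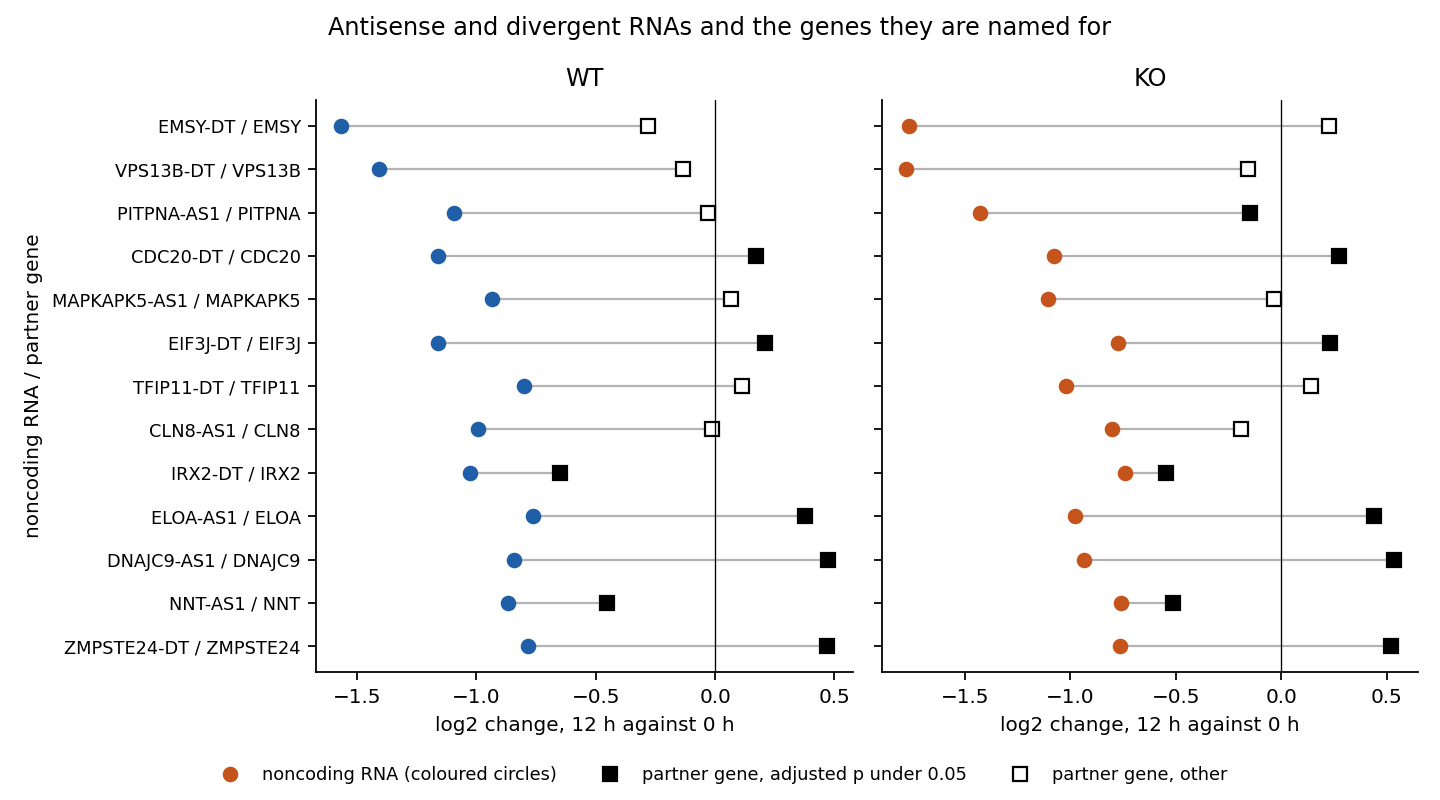
Log2 change from 0 to 12 h of 13 antisense or divergent RNAs of the set (coloured circles) and of the gene each is named for (squares, filled where limma's adjusted p is under 0.05), in WT and KO. The RNAs lie left of -0.7 by the rule, and the partner genes lie between -0.65 and 0.53.

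Promoters of 161 of the 232 genes were matched by symbol in the RefSeq table, each 300 bases long. Of 12 motifs searched on both strands, the ETS site CCGGAAG was the one whose share was farthest from that of the other genes: 14 of 161 member promoters held it (8.7%), against 20.6% of 9654 genes tested and 21.6% of 8576 genes at the untreated minimum. Motifs of interferon signalling were at background, with the interferon-stimulated response element core GAAANNGAA in 5.59% (6.56% of genes tested) and the gamma-activated site TTCNNNGAA in 4.97% (6.2%). The same held for the AP-1 site TGANTCA (4.97% against 4.63%), the cAMP response element TGACGTCA (4.35% against 3.43%), the GC box GGGCGG (69.6% against 71.0%), the CCAAT box (39.1% against 37.1%) and the TATA box TATAAA (5.59% against 5.33%). The E box CACGTG was in 7.45% (10.2%), the TEAD site GGAATG in 13.0% (10.7%), the E2F site TTTGGCGC in 1.24% (1.11%) and the NRF1 site CGCATGCG in 2.48% (4.06%). Some of these can overlap in a sequence, and a match is a string of letters, not a shown binding site. Promoters of a divergent and an antisense RNA that do hold the ETS site are printed, with its reverse complement CTTCCGG in capitals: CDC20-DT at chr1:43358624-43358923, minus strand, where it begins at -184, and PITPNA-AS1 at chr17:1516669-1516968, plus strand, where it begins at -11, both GRCh38.p14.
CDC20-DT: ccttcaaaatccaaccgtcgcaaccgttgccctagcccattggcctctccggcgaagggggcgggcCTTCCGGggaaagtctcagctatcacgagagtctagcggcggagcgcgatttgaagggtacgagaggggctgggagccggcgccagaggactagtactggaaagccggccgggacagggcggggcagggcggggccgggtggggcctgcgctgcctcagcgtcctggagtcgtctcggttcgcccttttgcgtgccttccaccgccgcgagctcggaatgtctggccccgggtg
PITPNA-AS1: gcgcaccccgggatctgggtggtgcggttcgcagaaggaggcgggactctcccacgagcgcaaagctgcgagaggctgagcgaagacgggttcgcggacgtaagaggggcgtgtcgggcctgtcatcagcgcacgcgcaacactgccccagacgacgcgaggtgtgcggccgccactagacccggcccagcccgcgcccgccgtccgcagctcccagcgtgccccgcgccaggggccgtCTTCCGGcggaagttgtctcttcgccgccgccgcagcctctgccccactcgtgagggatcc

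The protein-coding members had somewhat shorter transcripts, by GENCODE release 29, with a median of 2595 bases against 3028 for the 11360 protein-coding genes tested. The A and U share of their 3' UTRs had a median of 51.4% against 57.8%, with quartiles of 44.5% and 60.2% against 48.4% and 64.7%. The element AUUUA, common in short-lived mRNAs, occurred at a median of 1.12 per kilobase of 3' UTR against 1.61. Promoter GC content was nearly the same, at 66.7% and 65.3%. Genes share these features with their level and class, so the values are a description without a test.

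Whether the return was complete was read from 48 h against 0 h, which shares its libraries with the contrasts of the rule and so is also a description. In WT 51 of the 232 genes were called lower than untreated (6.3% of all genes were) and 2 higher (6.52% of all genes). In KO 48 were lower (7.42%) and 4 higher (5.9%), and 35 genes were lower in both lines. The WT counts moved most without WT 48 h replicate 1, where 26 genes were called lower and 7 higher. Leaving out WT 0 h replicate 1, 2 or 3 gave 34, 40 or 36 lower. In KO the lowest count was 32, without KO 0 h replicate 1. The 2 higher genes in WT were ASNS, by a log2 change of 0.58 (SE 0.058, limma adjusted p = 2.6e-06), and PHGDH, by 0.24 (SE 0.049, adjusted p = 0.00387). Both were also higher in KO, by 0.40 and 0.21, with TEF (0.39, adjusted p = 0.021) and ENSG00000269094 (0.65, adjusted p = 0.0454). TEF was at 0.33 in WT with an adjusted p of 0.0513. PADI3 remained lowest among genes lower in both lines by the WT change, at -0.82 in WT and -0.80 in KO. EMSY-DT was at -0.78 and -0.90, CXCL14 at -0.58 and -0.82, ZMAT3 at -0.48 and -0.52, HTRA1 at -0.45 in both, and EGR1 at -0.36 and -0.41.

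The KO line was compared with the WT line at each time, a contrast the rule did not use. At 0 h 18 of the 232 genes differed (4.89% of all genes tested did), 9 higher and 9 lower in KO. At 12 h 22 differed (3.62% of all), 9 higher and 13 lower, and at 48 h 20 differed (4.19%), 13 higher and 7 lower. At any of the 3 times 30 of the 232 genes differed, beside 7.81% of all genes tested. Of these, 13 differed at all 3 times and 27 had 1 direction throughout. The other 202 genes were not called at any time, which does not show that they were equal.

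OSBPL5, an oxysterol-binding lipid-transfer protein, was at 12.2, 11.1 and 10.6 RPKM in untreated WT and 27.9, 24.0 and 29.8 in untreated KO. Its log2 difference, KO minus WT, was 1.20, 0.92 and 1.51 at the 3 times (SE 0.1, limma adjusted p = 1.26e-06, 3.26e-05 and 9.09e-08), and every KO library lay above every WT library of its time. LINC02434 differed by 1.06, 1.11 and 0.90, SULT1A1, a phenol sulfotransferase, by 0.77, 0.82 and 0.98, GSTA4, a glutathione transferase for lipid aldehydes, by 0.79, 0.67 and 0.77, and DAPL1, an epithelial differentiation-associated gene, by 0.76, 0.89 and 0.74, all higher in KO at all 3 times. CLMN, calmin, was called at 48 h alone, at 0.91 (adjusted p = 0.00118), with differences of 0.41 and 0.51 before.

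Lower in KO were NNMT, nicotinamide N-methyltransferase, by differences of -0.82, -0.97 and -0.58, ZP3, a zona pellucida glycoprotein, by -0.85, -0.88 and -0.54, and H19 by -0.85, -0.69 and -0.40. All 3 passed the test at 0 and 12 h and not at 48 h, where the adjusted p was 0.0596, 0.109 and 0.059. NNMT was at 18.6, 18.0 and 14.1 RPKM in untreated WT against 8.92, 7.70 and 10.8 in KO. H19 was at 44.4, 37.9 and 45.0 RPKM in untreated WT against 27.6, 22.3 and 19.7 in KO. Untreated libraries of the lines did not overlap for either gene. The 12 h call of ZP3 was lost without WT 12 h replicate 1 or KO 12 h replicate 1.

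Of the 10 amino acid genes, 5 differed between the lines at some time, beside 30 of the 232 members and 7.81% of all genes. The share was the largest among the 13 classes, which hold 3 to 23 genes each and were not compared by a test. ASNS was higher in KO by 0.73, 0.33 and 0.54 (SE 0.058, limma adjusted p = 8.43e-07, 0.00371 and 2.52e-05) and PHGDH by 0.41, 0.31 and 0.38. GLS2 was lower by -0.58, -0.65 and -0.71 and GLDC by -0.27, -0.44 and -0.30. CBS was called at 48 h alone, at 0.44, with -0.10 at 12 h. Calls of GLS2 were lost without WT 0 h replicate 1 or KO 0 h replicate 2 at 0 h and without KO 12 h replicate 1 at 12 h. Calls of GLDC were lost without any of WT 0 h replicates 1, 2 and 3 or KO 0 h replicates 1 and 2 at 0 h, with the replicate block at 0 h, and without WT 48 h replicate 3 or KO 48 h replicates 2 or 3 at 48 h. The call of CBS was lost without KO 48 h replicate 2, and no omission removed a call of ASNS or PHGDH. ASNS and PHGDH are biosynthetic and GLS2 and GLDC catabolic enzymes, in a class assembled after membership was known. GLS2 and GLDC were singled out after their values were seen, and a difference between biosynthetic and catabolic enzymes was not tested.

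**Figure D5:**
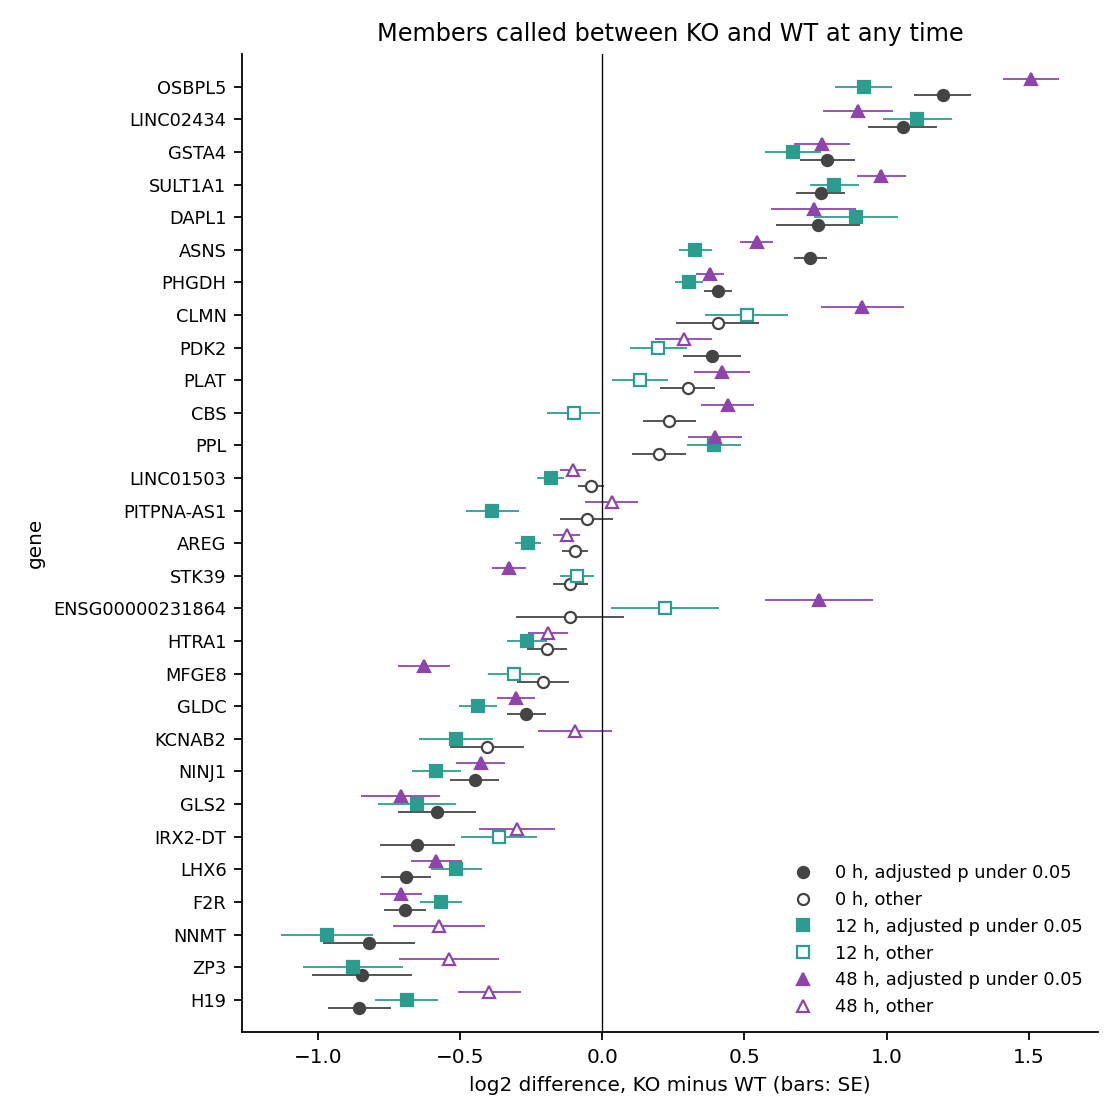
Log2 difference, KO minus WT, of 29 of the 30 genes called between the lines at any time, at 0 h (circles), 12 h (squares) and 48 h (triangles) with SE, filled where limma's adjusted p is under 0.05. OSBPL5 lies highest and H19, ZP3 and NNMT lowest at 0 h.

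Whether the size of the fall or return differed between the lines was tested by the interaction, although the rule, by asking for a fall in both lines, limits how far members can differ. By limma, 0 of the 232 genes passed for 12 h against 0 h (0.0753% of all genes did), 0 for 48 h against 12 h (0% of all genes) and 0 for 48 h against 0 h (0.0828%). At an unadjusted p under 0.05 there were 17, 19 and 12 members. ASNS had a larger log2 fall in KO by 0.40, with an interaction of -0.40 and an adjusted p of 0.113. A difference in the time course between the WT and KO lines was thus not detectable for any of the 232 genes at this threshold, while 30 differed in level.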

How the data were processed

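Processing was as follows. Each of the 18 libraries is a separate sample of its label's group, and columns were matched to samples by the names in the labels. The values are RPKM deposited by the authors in 1 table, rounded to 2 decimals. The submitters' processing notes name cutadapt, STAR 2.6.1, RSEM 1.3.0, limma 3.50.3 and hg19, with no role or order. The annotation, the gene filter and the strand setting are not given in the sources used here. No counts were recovered. Relative depth was estimated from low values of 1196 genes, where 94.1% of library pairs lay within 3% of it.

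Members were found from group means by the rule. A cell-means model over all 18 libraries was fitted to log2(RPKM + 1) in limma 3.58.1 under R 4.3.3, with a variance trend, and Benjamini-Hochberg adjustment ran over 13280 genes for each comparison, with a threshold of 0.05. Fold changes on this scale understate those of low genes. The fit was tested on simulated data. Gene types and UTRs came from GENCODE release 29 by gene ID, and promoters from RefSeq (GRCh38.p14) by symbol. No coordinates were converted between builds. A planned search of protein sequences was not run.

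Genes were named by a rule: the 12 largest falls, the 8 largest rises from 12 to 48 h, the 8 highest untreated levels, the 10 largest KO against WT differences, up to 4 members of each list or family, and the genes nearest to each threshold. Any other member, and any partner gene of an antisense or divergent RNA, was singled out after its values were seen. Some genes that the rule or the lists take are not reported here. The members, gene lists, roles and naming rule were chosen with earlier results of these data known. Alternatives changed the pseudocount, filter, scaling, group summary, variance trend, libraries in the fit and replicate block, or left out each library in turn.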

Additional observations from a re-analysis of the deposited data

How the results depend on the processing

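Under the rule itself, a pseudocount of 0.1 gave 369 genes, 232 of them shared, and median-of-ratios scaling gave 145, all shared. Leaving out 1 library gave 220 to 240 genes, and 96 genes were members under every alternative. With a pseudocount of 0.1 in the fit, the median log2 change of the 232 was -1.151 in WT and -1.203 in KO at 12 h, and 0.902 and 1.002 from 12 to 48 h. With median-of-ratios scaling it was -0.852 and -0.892 at 12 h, and 0.736 in KO from 12 to 48 h. With a mean RPKM of at least 5 the last was 0.861. Fitted on the libraries of the comparison alone, KO against WT at 12 h gave 14 members and KO at 48 h gave 1 higher than untreated.

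Leaving out 1 library, members differing between KO and WT ranged from 15 to 21 at 0 h, 17 to 25 at 12 h and 18 to 24 at 48 h. The interaction for 12 h gave 0 to 1 member and the others gave 0. At 48 h against 0 h, WT gave 26 to 54 lower and 2 to 7 higher, and KO gave 32 to 51 lower and 2 to 4 higher. The single interaction call came without WT 0 h replicate 1, the 7 higher in WT without WT 48 h replicate 1, the 4 without KO 0 h replicate 2, and the 2 higher in KO without KO 0 h or KO 48 h replicate 2.

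No pairing by replicate number was seen in the values, which cannot show that same-numbered samples had nothing in common. Deviations of same-numbered libraries correlated at -0.097 to 0.157 (median -0.013, 45 pairs) and of others at -0.109 to 0.145 (90 pairs). With the replicate number as a block, 16, 18 and 20 members differed between KO and WT at 0, 12 and 48 h, and the interactions gave 0.

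The depth in reads is unknown, so no counting limits were set. The cause of these changes was not tested.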
